A study of Mus musculus with 12 samples.

Results

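Liver RNA of mice without haptoglobin (Hp-null) was set against liver RNA of mice without hemopexin (Hx-null) over 1935 cDNA clones of a spotted array with 2 colours. The clones were those with values on at least 3 of the 4 arrays of each genotype, out of 2151 clones with any value. Both nulls and their wild-type littermates were littermates of doubly heterozygous Hp+/-Hx+/- parents on a mixed C57/BLJ6 X 129Sv background. Hp-null mice were Hp-/- with at least 1 wild-type Hx allele and Hx-null mice were Hx-/- with at least 1 wild-type Hp allele, as far as the labels write them. Livers of at least 5 adults, perfused with PBS, were pooled per genotype, and 4 arrays per genotype compared the null pool with that of the wild type. Another genotype, the double null (HpHx-null), is not part of the contrast, but its 4 arrays entered the same fit. They lent to the estimate of the spread and of the dye or array-set terms described below. Through these terms they can also move the difference of a clone with missing values. The labels name no more than 1 pool per genotype, so the 4 arrays are taken as repeated measurements of pooled RNA. Each p-value therefore measures the spread between arrays, not between mice. The sources used here give neither exact age, sex nor the deleted parts of both genes.

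Haptoglobin and hemopexin are plasma proteins made by the liver that take up what leaks from broken red cells. Haptoglobin binds free hemoglobin dimers and is cleared by macrophages through a scavenger receptor. Hemopexin binds free heme and carries it to hepatocytes. Iron released from heme is stored in ferritin, a shell of heavy and light chains, so liver genes of globin, heme and iron are the ones in which the design invites a comparison of both deficiencies.

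Values are log2 ratios of an array's 2 channels with the array's median set at 0, and a difference is the Hp-null ratio minus the Hx-null ratio. The wild-type pool is on every array and cancels in it. Which way the ratios run could not be settled. The labels place the null pool in the second channel throughout and swap its dye on replicates 3 and 4, yet the 2 pairs of Hp-null arrays with the same labelled dye correlated at -0.78 and -0.56, while such Hx-null pairs correlated at 0.83 and 0.85. Instead, the first principal component, with 72.0% of the sum of squares, split the arrays into 2 sets. Set 1 held Hx-null replicates 1 and 2 and Hp-null replicates 2 and 3, and set 2 held Hx-null replicates 3 and 4 and Hp-null replicates 1 and 4. Among these 8 arrays correlations ran from 0.66 to 0.90 within a set and from -0.78 to -0.54 between sets. "Lower in Hp-null" below reads the values as null over wild-type, and if they are wild-type over null every difference keeps its size and changes its sign. If the values instead follow the dyes, so that arrays have to be turned by the labelled dye or by the array set before the contrast, 0 clones passed either way in limma, with 40 to 211 at an unadjusted p under 0.05.

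Gene names rest on the reversed numbering of the spots, the gene of a spot being listed at 31201 minus its number. Of 3476 pairs of different clones annotated to the same gene, 205 had both clones measured by this numbering and 63 by equal numbers. By the reversed numbering 938 of the 1935 clones carried 1 symbol, for 849 genes, 60 carried an entry joining several genes, and 937 were unnamed. The annotation used here names 0 spots for the genes of haptoglobin and hemopexin, so their loss was not checked. Of 20 hepatocyte markers 6 were tested (Alb, Apoa1, Bhmt, Mat1a, Serpina1e and Ttr). Of the lymphocyte, endothelial and cholangiocyte markers 0 were tested. The 8 Hp-null and Hx-null arrays held 3088 to 4165 spot values each, and the fewest on any of the 12 arrays was 3009, on HpHx-null replicate 3.

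The lowest adjusted p-values lay mostly in clones whose annotation entry joins Hba-a1 and Hba-a2 with the histone gene H3f3a. Hba-a1 and Hba-a2 encode adult alpha-globin, a chain of the oxygen carrier of red cells. The entry points to no gene alone and no clone sequence was read here, so "globin clones" below is short for clones of this joined entry and does not say which of its genes a clone holds. The 2 alpha-globin genes were also alike just upstream of their starts, over the bases compared here, which does not bear on what a clone holds. In the RefSeq promoter sequences of build GRCm38.p6, 247 of 247 aligned bases before the start were identical, at an offset of 3 bases. The 250 bases before the start of Hba-a1 (chr11:32283422-32283671, plus strand) and of Hba-a2 (chr11:32296242-32296491, plus strand) are shown to make this sharing visible. Capitals mark TGATAA, which holds the core bound by erythroid factors such as GATA1. They also mark the shorter motif CACCC. Both were searched on both strands and their matches do not overlap.
Hba-a1: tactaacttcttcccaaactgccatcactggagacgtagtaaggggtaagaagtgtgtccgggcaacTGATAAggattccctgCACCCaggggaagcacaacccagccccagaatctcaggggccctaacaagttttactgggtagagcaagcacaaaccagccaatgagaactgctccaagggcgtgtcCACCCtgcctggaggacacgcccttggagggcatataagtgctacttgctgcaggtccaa
Hba-a2: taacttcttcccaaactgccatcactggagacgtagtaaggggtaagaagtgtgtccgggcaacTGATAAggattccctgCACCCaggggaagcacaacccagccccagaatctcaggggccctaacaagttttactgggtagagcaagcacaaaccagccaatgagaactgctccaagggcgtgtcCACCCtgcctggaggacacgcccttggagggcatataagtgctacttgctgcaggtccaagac
Each sequence held 1 TGATAA and 2 CACCC. Of all 32851 promoter windows of this length, 7.94% held TGATAA and 52.0% held CACCC. These matches describe the letters only.

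With the labelled dye as a term in limma, 11 of 1935 clones were lower in Hp-null than in Hx-null (adjusted p under 0.05), which is 0.568% of those tested. None was higher. At an unadjusted p under 0.05 there were 30 lower (1.55%) and 5 higher clones (0.258%). With a term for the 2 array sets in its place, 24 clones (1.24%) were lower and 0 higher, with 198 lower (10.2%) and 87 higher (4.5%) at an unadjusted p under 0.05. All 11 clones were among the 24. Of these 24 clones, 11 belonged to the joined globin entry, 7 were unnamed and 6 carried 1 symbol. Those 6 were 3 clones of Ftl1 and 1 each of Wdr7, Agbl5 and Mat1a. Within both array sets the Hp-null values of all 24 lay below the Hx-null values, as they did in 8.48% of all clones tested, while 7.91% lay above. The count of 11 fell to 0 when Hx-null replicate 1, 2 or 3, any Hp-null array or HpHx-null replicate 2 or 4 was left out. The count of 24 became 60 without Hp-null replicate 3 and 20 to 33 without any other array. These were not always the same clones. Of the 24 themselves, from 18 (without Hx-null replicate 3) to 24 (without HpHx-null replicate 3) stayed called. The globin clone of spot 6697 lost its call when any of 8 arrays was left out, and the unnamed clone of spot 29847 when any of 9 was.

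Of the 15 globin clones tested, 7 were called with the labelled dyes and 11 with the array-set term. In Hx-null the median of these 11 clones was 1.04 on replicate 1, 1.06 on replicate 2, 1.29 on replicate 3 and, from 3 clones, 0.65 on replicate 4. In Hp-null it was 0.09, -0.31, -0.20 and 0.02 on replicates 1 to 4. All 4 Hx-null medians were positive in both sets and with both labelled dyes, whereas those of Hp-null lay close to 0. The 11 clones were picked by their call in this contrast, so a gap between the genotypes is built into these medians. In the globin clones not called, the Hx-null medians were 0.17, 0.09, 0.21 and 0.11 on replicates 1 to 4. Those of Hp-null were -0.13, -0.12, -0.05 and -0.10. The clone of spot 11831, the only 1 of the 11 with a value on all 8 arrays, had ratios of 1.04, 1.24, 1.15 and 0.72 in Hx-null and 0.11, -0.41, -0.29 and 0.02 in Hp-null. The groups did not overlap, as in 1.71% of all clones tested on this side and 1.6% on the other. Its mean was 1.04 ± 0.22 (SD, n = 4 arrays) in Hx-null and -0.14 ± 0.25 (SD, n = 4 arrays) in Hp-null. The difference of -1.18, a 2.26-fold size, passed with the labelled dyes (SE 0.18, limma adjusted p = 0.0382) and with the array-set term (SE 0.15, adjusted p = 0.00077). It was -1.49 within set 1 and -0.87 within set 2. Over the 11 clones the difference ran from -1.58 to -0.92 with a median of -1.28. Arrays turned by the array sets left these clones a median difference of -0.24 (from -0.61 to 0.35). Arrays turned by the labelled dyes left one of -0.12 (from -0.33 to 0.61), and none of the 11 passed under either turning. The size of the gap thus depends on the reading of the ratios as null over wild-type on every array. These clones share 1 annotation entry and are not counted as 11 separate findings.

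**Figure D1:**
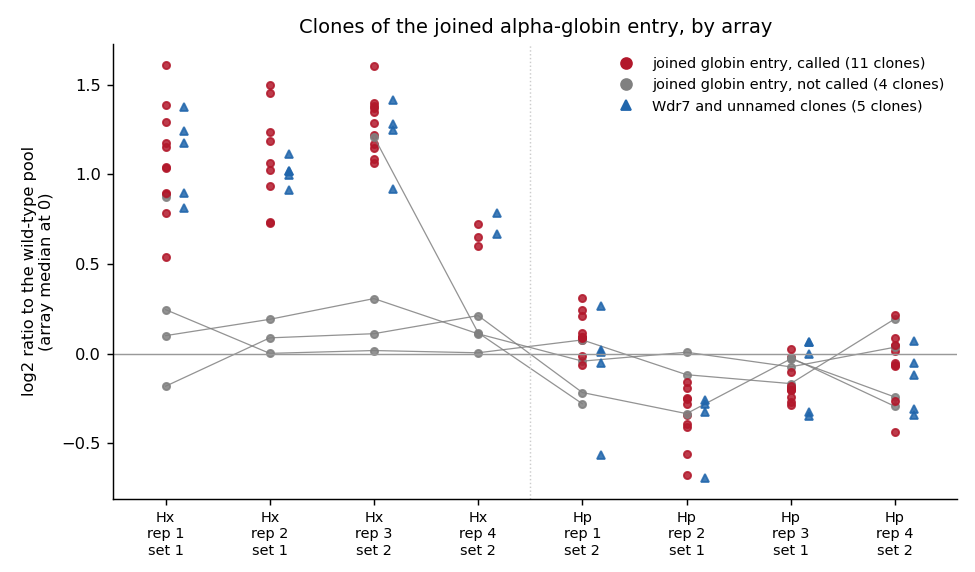
Log2 ratios (vertical axis, array median at 0) of the 15 tested clones of the joined alpha-globin entry on the 4 Hx-null and 4 Hp-null arrays, with the array set under each. Called clones are red points, the 4 not called are grey points joined by lines, and blue triangles are Wdr7 and 4 unnamed clones with a like pattern. Red points lie between 0.54 and 1.61 on the Hx-null arrays and between -0.67 and 0.31 on the Hp-null arrays.

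The joined entry was not uniform. The 4 clones that were not called had a median difference of -0.23. The clones of spots 5359, 19055 and 24847 had differences of -0.26, -0.07 and -0.20, and these 3 had values on all 8 arrays. The fourth, spot 6631, stood at -0.93 (SE 0.23, adjusted p = 0.124). Of the 11 called clones, 8 lacked a value on Hx-null replicate 4, which had the fewest values of the 8 arrays (3088 spots). The part of the missing values in the difference was not tested.

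The single-symbol clone nearest to this pattern was 1 of Wdr7, a WD-repeat protein of vesicle acidification. Its ratios were 1.24, 1.02 and 1.25 on Hx-null replicates 1 to 3 and 0.01, -0.32, 0.06 and -0.12 in Hp-null. The groups did not overlap, again as in 1.71% of all clones tested. The difference was -1.27 (SE 0.17, limma adjusted p = 0.00135) with the array-set term and -1.30 (SE 0.18, adjusted p = 0.0382) with the labelled dyes. Over 10 arrays this clone correlated at 0.96 with the median profile of the called globin clones. Because it was called in the same contrast as they were, part of this correlation is built in. What sequence the Wdr7 clone holds was not tested. Among unnamed clones, that of spot 25143 showed a difference of -1.39 (SE 0.15, adjusted p = 0.000378) and that of spot 27401 one of -1.16 (SE 0.15, adjusted p = 0.000869), with profile correlations of 0.96 and 0.87 over 11 arrays each. The same limit holds for these correlations. No gene of the list of globin and erythroid genes was tested under a single symbol, so no other red cell marker could be set beside these clones.

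Ftl1, the light chain of ferritin, was the single iron gene among the called clones. Its clone of spot 15513 had ratios of 0.27, 0.37, -0.83 and -1.04 on Hx-null replicates 1 to 4 and -1.83, -0.75, -0.41 and -1.78 on Hp-null replicates 1 to 4. Each Hp-null value was below both Hx-null values of its own set, while over all 8 arrays the groups overlapped. Of all clones with values on the 8 arrays, 7.28% lay below within both sets and 8.67% above. This clone was picked by its call with the array-set term, so a gap within the sets is built in. The difference was -0.90 within set 1 and -0.87 within set 2. With the array-set term it was -0.89, a 1.85-fold size (SE 0.13, limma adjusted p = 0.00183). With the labelled dyes the SE grew to 0.49 for the same difference (adjusted p = 0.997). The clones of spots 20713 and 10313 had differences of -0.91 (adjusted p = 0.00209) and -0.93 (adjusted p = 0.00302).

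The other 3 Ftl1 clones were negative as well but did not pass. Spot 23337 stood at -0.57 (SE 0.14, adjusted p = 0.0599), spot 3867 at -0.33 (SE 0.15, adjusted p = 0.323) and spot 4751, without a value on Hp-null replicate 3, at -0.33 (SE 0.16, adjusted p = 0.355). The 6 clones thus gave 1 sign and a range of sizes. The array sets themselves differed by 1.22 to 1.36 for the 3 called clones, set 1 being higher, which is more than the difference between the nulls. Arrays turned by the array set left differences of -0.02, -0.00233 and 0.01 in the clones of spots 15513, 20713 and 10313. Arrays turned by the labelled dyes left -0.73, -0.77 and -0.73, and none of the 3 passed under either turning. When the loadings of the first component replaced the sets, so that the set difference may vary in size between arrays, the 3 clones stood at -0.72, -0.73 and -0.74 and still passed (adjusted p = 0.00852, 0.0167 and 0.0224).

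**Figure D2:**
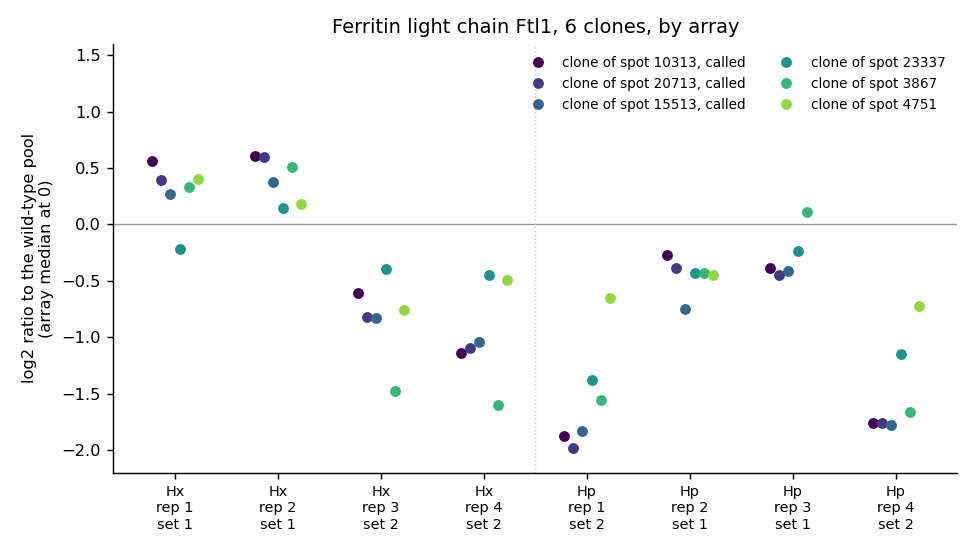
Log2 ratios (vertical axis, array median at 0) of the 6 Ftl1 clones on the 8 arrays, with the array set under each. On the 4 arrays of set 1 the 3 called clones lie between 0.27 and 0.60 in Hx-null and between -0.75 and -0.27 in Hp-null, and on those of set 2 between -1.14 and -0.61 in Hx-null and between -1.98 and -1.76 in Hp-null.

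Of the 4 iron handling genes tested, Ftl1 was the single one with a called clone. Fth1, the heavy chain of ferritin, had a difference of -0.12 (SE 0.14), which became 0.05 with quantile scaling. Tfrc, the transferrin receptor that takes up iron, stood at -0.03 (SE 0.11), and Slc39a14, a carrier of zinc and free iron, at -0.22 (SE 0.15). The median over the 4 genes was -0.17, against 0.00323 over all clones tested. Of the 4 heme genes tested none had a called clone, and their median was 0.08. Urod, a step of heme synthesis, stood at 0.09 (SE 0.10), Hebp1, a heme-binding protein, at 0.08 (SE 0.21), Bach1, a repressor that heme inactivates, at 0.08 (SE 0.15) and Pgrmc1, a heme-binding membrane protein, at -0.05 (SE 0.16), which became 0.05 with quantile scaling and 0.02 with component loadings.

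Agbl5 and Mat1a completed the called genes, both with the array-set term only. Agbl5 removes glutamates from tubulin. Its ratios were 0.64, 1.03, -1.16 and -1.03 on Hx-null replicates 1 to 4 and -1.86, -0.02, 0.21 and -1.80 on Hp-null replicates 1 to 4. The difference was -0.74 within set 1 and -0.73 within set 2 (array-set term: SE 0.13, limma adjusted p = 0.0055), whereas set 1 exceeded set 2 by 1.93. With component loadings it fell to -0.47 and no longer passed (adjusted p = 0.146), nor did it with quantile scaling (adjusted p = 0.0827).

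Mat1a makes S-adenosylmethionine in hepatocytes. It had ratios of 0.82, 0.95 and 0.21 on Hx-null replicates 1 to 3 and -0.98, 0.37 and -0.90 on Hp-null replicates 1, 3 and 4. The groups overlapped over all arrays and did not within a set, as in 8.48% of all clones tested on this side and 7.91% on the other. Each set held only 1 value of 1 genotype, Hp-null replicate 3 in set 1 and Hx-null replicate 3 in set 2. The difference was -0.82 (SE 0.17, adjusted p = 0.0408) with the array-set term, -0.52 within set 1 and -1.15 within set 2. It did not pass with component loadings (adjusted p = 0.0975), with quantile scaling (adjusted p = 0.175) or when any of 5 arrays was left out (highest adjusted p = 0.277).

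**Figure D3:**
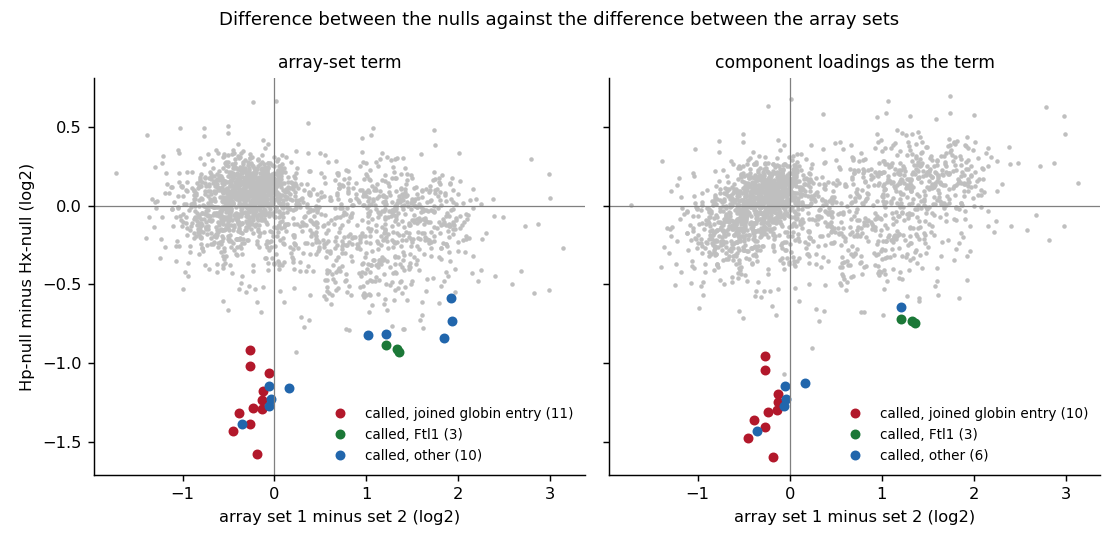
Difference between Hp-null and Hx-null (vertical axis, log2) against the difference between array sets 1 and 2 (horizontal axis, log2) for 1935 clones, with the array-set term on the left and component loadings on the right; coloured points are called clones. The called globin clones lie between -0.45 and -0.06 on the horizontal axis, the Ftl1 clones between 1.22 and 1.36, and 24 clones are called on the left and 19 on the right.

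The signed set difference and the difference between the nulls were related in a direction that depended on the term. Over the 1935 clones they correlated at -0.25 with the array-set term and at 0.21 with component loadings, a description over clones that share arrays. Unadjusted p-values under 0.05 fell on 198 lower and 87 higher clones with the array-set term, and on 157 lower (8.11%) and 138 higher ones (7.13%) with component loadings. The excess on the lower side thus depended on the term. All 19 clones called with loadings (0.982%) were among the 24.

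No list other than the iron and amino acid ones (and the hepatocyte markers, through Mat1a) had a called clone in either fit, and the members below are given as values. Among the 6 genes of secreted liver proteins, all differences were negative with the array-set term, with a median of -0.18, but Serpina1e turned to 0.24 with quantile scaling and to 0.25 with component loadings. Ttr, the carrier of thyroxine and retinol-binding protein, had ratios of 0.94, 0.98 and -0.65 on Hx-null replicates 1 to 3 and -1.16, 0.09, 0.15 and -1.30 in Hp-null, with a difference of -0.76 (SE 0.19, adjusted p = 0.0852). Bche, butyrylcholinesterase, stood at -0.56 (SE 0.22) and Alb, albumin, at -0.21 (SE 0.33), the last moving to -0.00826 with component loadings. With component loadings the list median was -0.07. The 6 hepatocyte markers, 4 of which are on that list too, had a median of -0.35, and -0.12 with component loadings.

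Glutathione transferases conjugate electrophiles with glutathione. Of the 4 tested, Mgst1 stood at -0.48 (SE 0.19, adjusted p = 0.278), Gstm2 at -0.38 (SE 0.19) and Gstm1 at -0.47 and -0.17 in 2 clones, while Gstp1 had the opposite sign at 0.27 (SE 0.18). Their median was -0.35, and -0.22 with component loadings. Among 8 antioxidant genes the median was -0.00944. The peroxidase Gpx1 stood at -0.56 and -0.13 in 2 clones and catalase, Cat, at 0.20 (SE 0.18). The second Gpx1 clone turned to 0.02 with quantile scaling.

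Of 9 chaperones, 4 were negative and 5 positive, with a median of 0.04. Hspa5, the main chaperone of the endoplasmic reticulum, had ratios of 0.96, 0.73, -0.61 and -0.75 in Hx-null and -1.14, -0.34, 0.29 and -0.97 in Hp-null, a difference of -0.62 (SE 0.17, adjusted p = 0.115). Pdia3, a disulfide isomerase of the same compartment, stood at -0.37 (SE 0.12), and Hspa9, the mitochondrial Hsp70, at 0.21 (SE 0.10). In amino acid breakdown, next to Mat1a, Bhmt, which remethylates homocysteine, stood at -0.48 (SE 0.13, adjusted p = 0.113), whereas the cysteine-oxidising enzyme Cdo1 was at 0.33 (SE 0.12, adjusted p = 0.255). The 6 genes of that list had a median of -0.05.

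Among 20 ribosomal proteins, 11 were negative and 9 positive, with a median of -0.07. The lowest gene mean was that of Rps2 at -0.68 (SE 0.24, adjusted p = 0.229), without a value on Hx-null replicate 4. Rpl10 stood at -0.77, -0.52, -0.24 and -0.18 in 4 clones, the lowest with an adjusted p of 0.0554. Of 17 genes of oxidative phosphorylation 11 were negative and 6 positive, with a median of -0.07. Cox7c, a subunit of cytochrome oxidase, stood at -0.53 (SE 0.15, adjusted p = 0.127), and Uqcrc2, a core subunit of complex III, at 0.67 and 0.21 in 2 clones. Among 8 translation factors, with a median of 0.00384, the elongation factor Eef1a1 spread from -0.54 to 0.29 over 13 clones, several of which changed sign with component loadings.

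**Figure D4:**
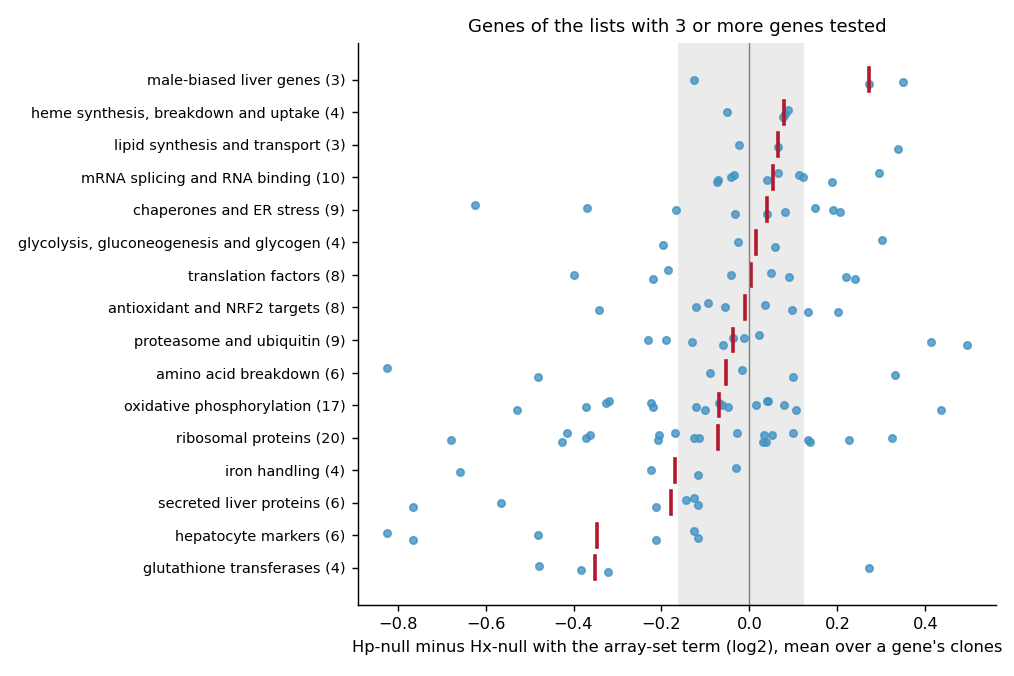
Hp-null minus Hx-null under the array-set term (horizontal axis, log2) for each gene of the lists with at least 3 genes tested. A blue point is 1 gene (mean over its clones), a red bar the list median, the number of genes is in brackets, and the grey band spans the middle 50% of all clones, from -0.16 to 0.12; glutathione transferases and hepatocyte markers have the lowest medians, at -0.35.

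In the proteasome and ubiquitin list 6 genes were negative and 3 positive. Its extremes were Anapc4, of the anaphase-promoting complex, at 0.50 (SE 0.20) and the proteasomal ATPase Psmc1 at -0.23 (SE 0.11). Splicing and RNA-binding genes had a median of 0.05 over 10 genes, with Rbm39 at 0.29 (SE 0.13). The 3 male-biased liver genes tested were Nudt7 at 0.35 (SE 0.14), Gstp1, and Serpina1e at -0.13 with the sign changes given above.

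Only 2 of 25 macrophage markers were tested. Fcgr1, a high-affinity IgG receptor of macrophages, had ratios of 0.57, 0.29, 0.47 and 0.39 in Hx-null and 0.23, -0.40, -0.01 and -0.15 in Hp-null. All Hp-null values lay below all Hx-null values, as in 1.71% of all clones, but the difference of -0.51 (SE 0.16, adjusted p = 0.17) did not pass. Fcer1g, the signalling chain of such receptors, stood at 0.04 (SE 0.16), and at -0.00875 with component loadings. In pooled tissue, fewer cells of a type and less RNA per cell cannot be told apart. Of the neutrophil markers, Ltf stood at 0.17 (SE 0.10) and Csf3r at -0.03 (SE 0.13), which became 0.07 with quantile scaling and 0.13 with component loadings. The remaining tested markers, Lum and Sparc of stellate cells and fibroblasts, stood at 0.24 (SE 0.12) and -0.09 (SE 0.16).

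On 1373 clones with values on all 8 arrays, Hp-null lay below Hx-null within both sets in 100 clones (7.28%) and above in 119 (8.67%). The named genes among them with the largest differences that had no called clone include, on the lower side, Selenow, a small selenoprotein, at -0.79 (SE 0.21, adjusted p = 0.095). Irgq at -0.73 (SE 0.22), the potassium channel Kcnn4 at -0.70 (SE 0.30), Ttc12 at -0.56 (SE 0.17) and the mitochondrial ribosomal protein Mrps25 at -0.51 (SE 0.23) followed, beside Hspa5, Fcgr1 and 1 clone of Eef1a1.

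On the higher side the differences were smaller, from 0.31 to 0.35. They belonged to 1 clone of Rrp9, of the machinery that processes ribosomal RNA, Kcnn1, Stat6, the transcription factor of interleukin 4 signalling, Entpd1, an ectonucleotidase, Gnb1, Marveld2, B3gntl1 and the copper carrier Slc31a1. The other Rrp9 clone stood at 0.17 (SE 0.12), with -0.05 within set 1 and 0.39 within set 2. Marveld2, a protein of tricellular junctions, had the tightest values: -0.21, -0.19, -0.36 and -0.11 in Hx-null and 0.07, 0.16, 0.06 and 0.11 in Hp-null. The groups did not overlap, as in the 1.6% of all clones with every Hp-null value above every Hx-null value, and had opposite signs, as in 0.517%; the reverse signs were seen in 0.155%. The difference was 0.32 (SE 0.10, adjusted p = 0.154). The positive difference with the lowest adjusted p, chosen after its value was seen, was that of B2m, the light chain of MHC class I, at 0.65 (SE 0.15, adjusted p = 0.0663), with 3 arrays per genotype.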

How the data were processed

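The values the authors deposited are ratios on a log scale, read here as log2, for 31200 spots on each of 12 arrays. Their base, normalization, spot filter and direction could not be found in the labels or the table. Each array was centred on its median, and neighbouring duplicate spots were averaged. limma 3.58.1 (R 4.3.3; lmFit, robust eBayes) was fitted to all 12 arrays, with 1 coefficient per genotype and either the labelled dye or the array set as a term for each clone. P-values were adjusted over all 1935 clones by Benjamini-Hochberg, with a threshold of 0.05. The array sets, which came from the values, are the signs of the first component over 1162 clones measured on all arrays. The script was tested on simulated data. Members, lists and terms were chosen with earlier results of these data known. Named were the genes of called clones, at most 2 unnamed called clones per direction, the 8 largest differences per direction that kept 1 side within both sets, and up to 3 genes per list (all iron and heme genes). Alternatives changed the scaling, the filter on missing values, the term, the arrays and the moderation.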

Additional observations from a re-analysis of the deposited data

Results flagged for a closer look

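Of 189 groups of 4 values looked at in the named clones, 2 (1.06%) held an array far from the other 3. Chance gives about 1 in 20 for 4 values with 1 common centre. The array sets part many of these groups 2 to 2, so the share cannot be set against that rate. The 2 flagged values were Hp-null replicate 2 of the unnamed clone of spot 8627, at -0.69, and Hx-null replicate 1 of the uncalled globin clone of spot 19055, at 0.25. In 4 named clones every Hp-null value had 1 sign and every Hx-null value the other. Their differences were -1.39 for the globin clone of spot 29419, -0.93 for that of spot 6631, 0.32 for Marveld2 and 0.22 for Pabpc1, a poly(A)-binding protein. Only the first passed the test of the difference (limma with the array-set term, adjusted p = 0.000578); the others had adjusted p-values of 0.124, 0.154 and 0.321. Of all clones, 0.155% had this pattern on the lower side and 0.517% on the higher.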

How the results depend on the processing

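With the labelled dyes, the 11 calls became 0 with the values as deposited, quantile scaling, the 8 Hp-null and Hx-null arrays alone, values required on all 8 arrays, no moderation, or arrays turned by dyes or sets (limma; 22 to 156 clones at an unadjusted p under 0.05), and 19 with component loadings. Leaving out 1 array gave 0 to 9. With the array-set term, the 24 calls became 10 with no term, 6 with values required on all 8 arrays, 13 without moderation (2 of them higher) and 0 with arrays turned by dyes or by sets. Leaving out 1 array gave 20 to 60. The cause was not tested. With the replicate number as a block, 0 clones passed from either starting point (34 at an unadjusted p under 0.05). The numbers do not pair the arrays: deviations of same-numbered Hp-null and Hx-null arrays correlated at -0.78, 0.82, -0.84 and 0.87. Turned by the array sets, called clones changed sign to 0.0144 (Ftl1, spot 10313), 0.44 (Mat1a), 0.24 and 0.0605 (unnamed, spots 24907 and 29847) and 0.35 and 0.23 (globin, spots 6697 and 9247). Turned by the labelled dyes, they did so to 0.61 and 0.38 (the same globin clones) and 0.11 (unnamed, spot 15129). Missing spot values, 1 pool per genotype and the unsettled direction limit all results.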

Other observations

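Of 59 genes with more than 1 clone tested, 31 had the same sign in all their clones, and the median range between clones of a gene was 0.18 on the log2 scale. Outside the called clones, and chosen after their values were seen, clones of Lima1, an actin-binding protein, Emc8, of a membrane insertion complex, and Fau, a ribosomal protein fused to a ubiquitin-like one, had profiles near that of the called globin clones. Their correlations with it were 0.85 over 10 arrays, 0.84 over 9 and 0.82 over 12, and these arrays share the wild-type pool. The differences between Hp-null and Hx-null were -0.53, -0.61 and -0.38, none of which passed (limma with the array-set term, adjusted p = 0.154, 0.125 and 0.136). The other tested clone of Emc8 stood at 0.01.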
